A study of Mus musculus with 4 samples.

Results

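The genes described here are 9 interferon-inducible GTPases (Gbp2, Gbp3, Gbp4, Gbp5, Gbp7, Gbp8, Igtp, Iigp1 and Irgm1) and Irf1, the gene of a transcription factor that switches on many of them. They were taken by symbol from the gene rows of the count matrices, 10 of 32285 genes, and each symbol matched 1 row in all 4 libraries. Ifng, the gene of interferon-gamma, was followed in the same cells for comparison. The libraries hold T cells sorted for surface CD3 from tumors and read by CITE-seq, which counts the messenger RNA and antibody-bound surface proteins of single cells in droplets (10x Genomics 3′ chemistry). The tumors were grown under the skin of 6-week-old male wild-type C57BL/6J mice from Tsc2-deficient 105K cells, a line from a mouse kidney tumor. In the control group (sh_NC) the 105K cells stably carried a non-targeting short hairpin RNA. In the knockdown group (sh_B7-H3 (1)) the hairpin was aimed at Cd276, which encodes B7-H3, a checkpoint protein of the B7 family. Each group has 2 libraries (replicates 1 and 2) from 80 pooled tumors, per the labels as duplicate lanes, while the study elsewhere calls them independent samples. They are taken here as lanes of 1 pool, so every test speaks of these pools, and handling that was not shared by both pools cannot be told apart from the hairpin. The hairpin acts in tumor cells, not in the sorted T cells, and Cd276 had 0 UMIs in the T cell classes of all 4 libraries, so these counts do not check the labels.

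Interferon-gamma is a cytokine made by activated T cells and NK cells. Its receptor, IFNGR1 with IFNGR2, acts through the kinases JAK1 and JAK2, and many of its target genes carry GAS elements; IRF1 is made in response and binds ISRE elements. The guanylate-binding proteins (GBPs) and the immunity-related GTPases (IRGs) are among the most strongly induced targets, and both families attack vacuoles that hold intracellular microbes. Among the IRGs, Irgm1 and Igtp (also called Irgm3) are regulatory members that keep effector members such as Iigp1 (Irga6) inactive on the cell's own membranes, and Irgm1 is known for limiting the death of activated CD4+ T cells exposed to interferon-gamma. Type I interferon, which acts through a different receptor, induces many of the same genes.

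The promoter sequences that carry these elements are shown first, since the genes of the family did not move together. Promoters, 250 bases before to 50 bases after a start site, came from RefSeq (build GRCm38.p6) and were found for Irf1, Gbp2, Gbp3, Gbp5, Gbp7, Igtp, Irgm1 and Ifng; Gbp4, Gbp8 and Iigp1 had no entry. They were searched on both strands for GAS (TTCNNNGAA) and ISRE (GAAA, any 2 bases, GAAA), and the windows below, 30 bases each and 5′ to 3′ on the strand of the gene, carry the match in capitals. An ISRE on the opposite strand reads as TTTC, any 2 bases, TTTC.
Irf1 GAS (chr11:53769914-53769943, + strand, 90 bases before the start): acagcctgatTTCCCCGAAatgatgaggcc
Igtp GAS (chr11:58199501-58199530, + strand, 45 bases before the start): aactagccatTTCTAGGAActgaaactgaa
Igtp ISRE (chr11:58199512-58199541, + strand, 34 bases before the start): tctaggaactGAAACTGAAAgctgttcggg
Irgm1 ISRE (chr11:48871425-48871454, - strand, 24 bases before the start): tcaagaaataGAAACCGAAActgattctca
Gbp2 ISRE (chr3:142620594-142620623, + strand, 59 bases before the start): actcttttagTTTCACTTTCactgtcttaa
Gbp3 ISRE (chr3:142559989-142560018, + strand, 45 bases before the start): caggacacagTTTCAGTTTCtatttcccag
Gbp5 GAS (chr3:142496872-142496901, + strand, 52 bases before the start): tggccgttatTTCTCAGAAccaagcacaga
Gbp5 ISRE (chr3:142496759-142496788, + strand, 165 bases before the start): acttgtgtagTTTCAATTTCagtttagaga
Gbp7 GAS (chr3:142530239-142530268, + strand, 87 bases before the start): aagcagaagcTTCTCAGAAagtcagcacaa
Gbp7 ISRE (chr3:142530273-142530302, + strand, 53 bases before the start): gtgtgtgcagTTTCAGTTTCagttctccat
Of the 7 genes of the set with a promoter, 4 held a GAS (Irf1, Igtp, Gbp5 and Gbp7), 6 held an ISRE (all but Irf1) and 3 held both (Igtp, Gbp5 and Gbp7). Among all 32851 promoters of this length 8.30% held a GAS, 3.44% an ISRE and 0.454% both. Gbp5 and Gbp7 each had a further GAS match (245 and 106 bases before the start), Irgm1 and Gbp3 each had a further, overlapping ISRE match, Irf1 and Gbp3 each had a further start site without a match, and the Ifng promoter held 1 GAS and no ISRE. A match is a run of letters and not a measured binding site.

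The genes lie in a few clusters (GRCm38, GENCODE M21 annotation, all protein-coding). Gbp5, Gbp7, Gbp3 and Gbp2 follow each other on the + strand of chromosome 3 within chr3:142493978-142638008. Gbp8 (chr5:105014150-105139540) and Gbp4 (chr5:105115767-105139586) overlap on the - strand of chromosome 5, so their counts may have been split between them and are uncertain. Irgm1 (chr11:48861968-48871683, -), Irf1 (chr11:53770014-53778374, +) and Igtp (chr11:58199556-58207591, +) lie apart on chromosome 11, Iigp1 lies on chromosome 18, and Ifng is on chr10:118441046-118445892 (+).

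Cells were classed by their own RNA. Foxp3 cells had at least 1 UMI of Foxp3, the factor that defines regulatory T cells, and under 3 UMIs of Cd8a and Cd8b1 together; Cd4 cells had at least 1 Cd4 UMI, under 3 Cd8 UMIs and no Foxp3 UMI; Cd8 cells had at least 3 Cd8 UMIs and neither Cd4 nor Foxp3 UMIs. Control libraries 1 and 2 gave 1863 and 1537 Cd4 cells, 2738 and 2318 Cd8 cells, and 384 and 333 Foxp3 cells. Knockdown libraries 1 and 2 gave 837 and 1078 Cd4, 1081 and 1439 Cd8, and 226 and 241 Foxp3 cells. Counts of the 10 genes per class and library ran from 53 to 1495 UMIs in Cd4, 100 to 3031 in Cd8 and 53 to 440 in Foxp3 cells, so the Foxp3 cells give the least precise values. Between any pair of libraries 17 to 35 cell barcodes were shared. Levels are CPM (UMIs of a gene relative to all UMIs of a class in a library), scaled by TMM factors over the 12 sums, and subsets of a class were scaled within their own comparison. The levels of cell type markers and of droplets not called as cells are CPM without these factors. Reads come from the 3′ end of each message and levels are compared between classes and groups, not between genes. Log2 fold changes (± SE) come from edgeR's quasi-likelihood test on the sums of each comparison, and a gene was called at an adjusted p under 0.05 over all genes tested. With 2 libraries against 2 the smallest p of an exact permutation test is 0.333. Statements that libraries did or did not overlap are therefore descriptions, and the share of all genes without overlap was not counted.

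The Foxp3 class was checked against the 3 regulatory T cell markers that its rule did not use. Il2ra stood at 255 to 321 CPM in the Foxp3 and 7.25 to 10.9 in the Cd4 cells, Ctla4 at 265 to 328 against 14.0 to 33.9, and Ikzf2 at 794 to 1061 against 42.4 to 183. The T cell markers (Cd3d, Cd3e, Cd3g and Trac) stood between 3447 and 5397 CPM in every class, and the names of the Cd4 and Cd8 classes rest on their defining genes alone. The median depth of a cell was 7499 and 8034 UMIs in control and 6810 and 6804 in knockdown Cd4 cells, 8677 and 9004 against 6808 and 7028 in Cd8 cells, and 6670 and 6614 against 5964 and 5903 in Foxp3 cells.

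Ifng, the ligand, rose in all classes of the knockdown libraries. In Cd4 cells it stood at 40.6 and 44.3 CPM in control libraries 1 and 2 and at 243 and 172 in knockdown libraries 1 and 2. In Cd8 cells it was 17.5 and 25.3 against 124 and 103, and in Foxp3 cells 2.71 and 2.24 against 18.4 and 23.1. The groups did not overlap in any class, and edgeR gave log2 fold changes of 2.28 ± 0.11 (adjusted p = 7.81e-11), 2.41 ± 0.11 (2.22e-12) and 3.03 ± 0.38 (1.39e-08). More cells held an Ifng UMI, 7.35 and 7.81% of control against 34.5 and 30.9% of knockdown Cd4 cells, and 6.17 and 8.15% against 33.9 and 33.7% of Cd8 cells. In Foxp3 cells, which make little interferon-gamma, the shares were 1.04 and 0.90% against 7.08 and 5.81%. These were 4 and 3 control and 16 and 14 knockdown cells, with 8 and 6 against 29 and 38 Ifng UMIs. In droplets not called as cells Ifng stood at 19.2 and 27.3 CPM in control and 71.6 and 54.7 in knockdown libraries. The scaled Foxp3 levels lay below the unscaled ones of the droplets of the same library, as did the scaled control Cd8 levels. The part of free RNA in them was not tested. The Ifng UMIs were concentrated: the top 1% of Cd4 cells held 46.9 and 46.4% of them in control libraries and 34.3 and 24.1% in knockdown libraries.

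**Figure D1:**
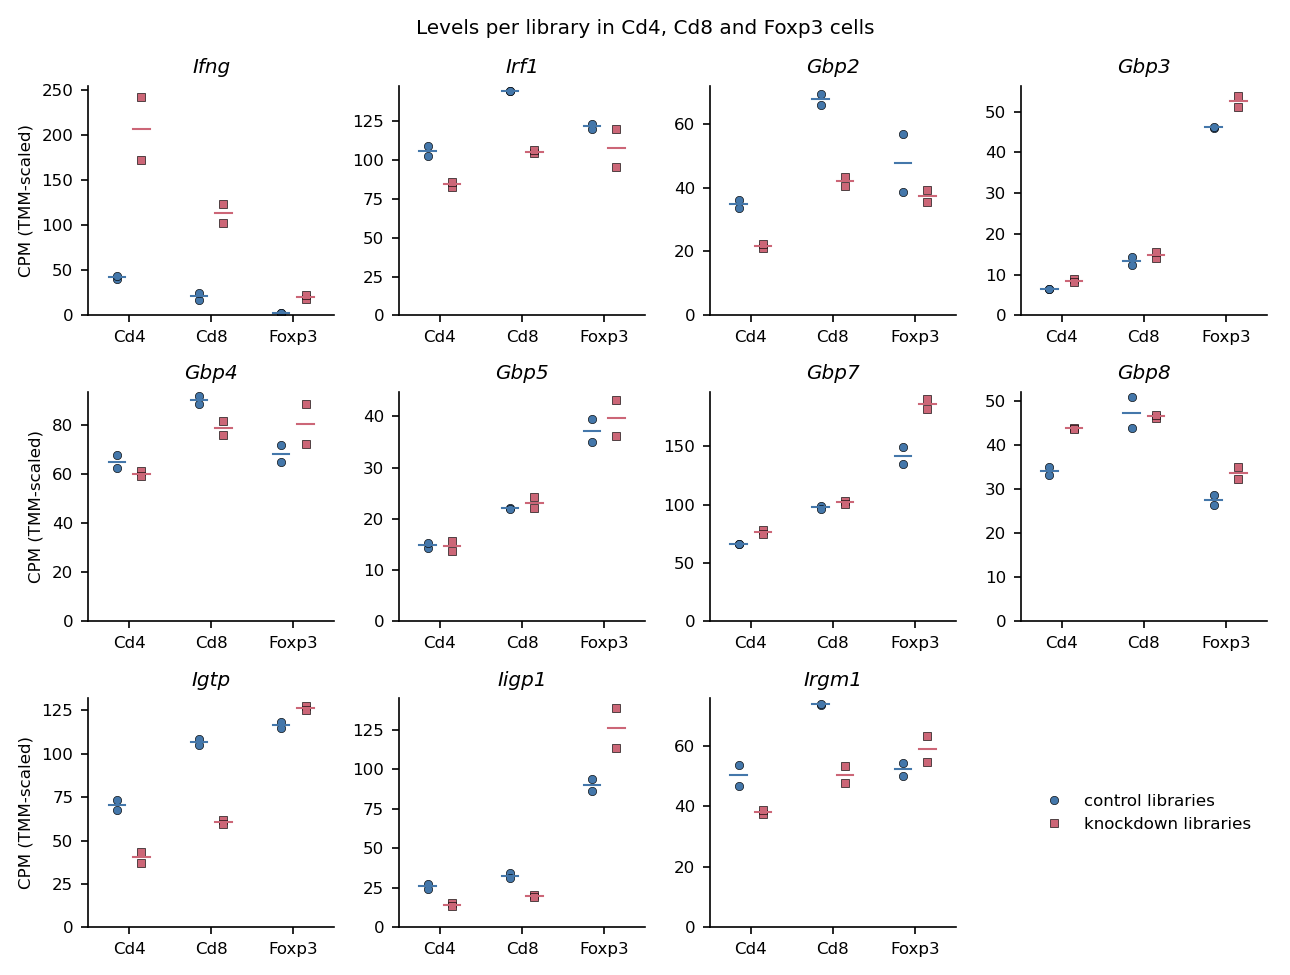
Levels of Ifng, Irf1 and the 9 GTPase genes in Cd4, Cd8 and Foxp3 cells, in TMM-scaled CPM on linear axes from 0, with a point for each of the 2 control (circles) and 2 knockdown libraries (squares) and a line at each mean. Ifng was higher in the knockdown libraries of every class, while Igtp in Cd4 cells ran from 67.4 to 73.5 CPM in control and from 37.3 to 43.5 in knockdown libraries.

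In the control libraries the 10 genes had their lowest means in Cd4 cells, apart from Gbp8, which was lowest in Foxp3 cells. Summed, they made up 488 and 460.2 CPM in Cd4, 702 and 689.9 CPM in Cd8, and 771 and 728 CPM in Foxp3 cells of control libraries 1 and 2. Ifng had the opposite order, highest in Cd4 and lowest in Foxp3 cells, 17.2-fold apart. All 10 genes were higher in Cd8 than in Cd4 cells (a fit over the 12 sums with the library as a block), where 16.4% of the 11740 genes tested were called higher. The log2 differences ran from 0.34 ± 0.07 for Iigp1 to 1.03 ± 0.13 for Gbp3 with a median of 0.56, against a median of 0.00 over all genes tested, and Ifng was lower by -1.0 ± 0.08.

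Foxp3 cells stood apart from Cd4 cells in 7 of the 10 genes, all higher, where 16.8% of all genes tested were called higher. Gbp3 differed most, at 6.57 and 6.60 CPM in control Cd4, 14.4 and 12.4 in control Cd8, and 46.1 and 46.2 in control Foxp3 cells, a 7.01-fold range and a log2 difference of 2.81 ± 0.15 between Foxp3 and Cd4 cells. Iigp1, the effector IRG, was at 27.7 and 24.2 CPM in Cd4, 34.5 and 31.0 in Cd8, and 94.2 and 86.1 in Foxp3 cells, a log2 difference of 1.79 ± 0.09. Gbp5 (1.32 ± 0.13), known for its part in inflammasome activation, Gbp7 (1.10 ± 0.07), Igtp (0.72 ± 0.07), Gbp2 (0.47 ± 0.12) and Irf1 (0.20 ± 0.07) followed. The call for Irf1 was lost without either control library (0.22 without library 1, 0.17 without library 2), without doublet removal (0.10), with lineage by surface tags (0.13), with no filter on low counts (0.15) and by DESeq2's Wald test (0.21), and that for Gbp2 without control library 1 (0.21). Gbp8 (-0.31) was not called, but was called lower with no filter on low counts (-0.36). Gbp3, Gbp5, Gbp7, Igtp and Iigp1 ran in the order Foxp3, Cd8, Cd4, with no overlap between neighbors in that order. Irf1 and Gbp2 ran Cd8, Foxp3, Cd4, and Gbp8 ran Cd8, Cd4, Foxp3, again without overlap. Gbp4 and Irgm1 were highest in Cd8 cells, and their Foxp3 and Cd4 values overlapped.

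When B7-H3 was knocked down in the tumor cells, Irf1, Gbp2 and all 3 IRG genes fell in the Cd4 and in the Cd8 cells, while Ifng rose. In Cd4 cells 5 of the 10 genes fell and 2 rose, where 20.4% of the 11193 genes tested were called lower and 21.2% higher, so the count that rose was at the background. In Cd8 cells 6 fell and 0 rose, where 20.6% of 11556 were called lower and 21.1% higher (edgeR; at an unadjusted p under 0.05 the same 6 passed, none of them higher). The median log2 fold change of the 10 genes was -0.22 in Cd4 and -0.32 in Cd8 cells, against 0.00 over all genes tested in each. Scaled by total UMIs without TMM factors, a scale added after the data were seen, the calls over all genes split 3019 higher to 1679 lower in Cd4 (2372 to 2283 with TMM) and 3132 to 1737 in Cd8 cells (2436 to 2378), and the calls among the 10 genes became 3 higher and 5 lower, and 1 higher and 5 lower.

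Irf1 was at 109 and 103 CPM in control and 82.6 and 86.0 in knockdown Cd4 cells. In Cd8 cells it was at 145 and 144 against 104 and 107. The knockdown libraries were lower in both classes without overlap, by -0.32 ± 0.05 and -0.44 ± 0.04 on the log2 scale.

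All 3 IRG genes fell. Igtp was at 73.5 and 67.4 against 37.3 and 43.5 CPM in Cd4 cells and at 108 and 105 against 61.9 and 59.4 in Cd8 cells, log2 fold changes of -0.79 ± 0.08 and -0.81 ± 0.05. Iigp1 was at 27.7 and 24.2 against 15.3 and 13.5 in Cd4 cells and at 34.5 and 31.0 against 20.8 and 19.5 in Cd8 cells, -0.86 ± 0.12 and -0.70 ± 0.09. Irgm1 was at 53.6 and 46.9 against 37.5 and 38.7, and at 73.5 and 74.0 against 47.6 and 53.4, -0.40 ± 0.08 and -0.53 ± 0.06. All control libraries of both classes lay above all knockdown libraries of the same class for each of the 3 genes, and edgeR's adjusted p ran from 2.89e-10 (Igtp in Cd8 cells) to 0.00117 (Irgm1 in Cd4 cells).

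Gbp2 was the GBP gene that fell in both classes. It fell from 36.0 and 33.5 to 21.2 and 22.3 CPM in Cd4 cells and from 65.9 and 69.3 to 40.5 and 43.4 in Cd8 cells, log2 fold changes of -0.67 ± 0.10 and -0.67 ± 0.06. Gbp7, of the same cluster on chromosome 3, rose in Cd4 cells from 66.3 and 65.9 to 78.4 and 75.3 CPM (0.22 ± 0.06), a call that was lost without knockdown library 1 (0.19) and by DESeq2's Wald test (0.22), and was not called in Cd8 cells. Gbp8 rose in Cd4 cells from 33.3 and 35.1 to 43.9 and 43.6 CPM (0.36 ± 0.08). Gbp4, which overlaps it, fell in Cd8 cells from 88.8 and 92.0 to 81.8 and 76.2 CPM (-0.19 ± 0.05), and this call was lost without control library 2 (-0.16), without knockdown library 2 (-0.13) with total UMIs as the scale (-0.11) and by DESeq2's Wald test (-0.19). Gbp3 and Gbp5 were not called in either class, though Gbp3 was called higher in Cd4 cells with no upper limit on detected genes (0.45), with lineage by surface tags (0.44) and with total UMIs (0.47). Gbp3 was at 6.57 and 6.60 against 8.92 and 8.22 CPM in Cd4 cells, and Gbp5 at 14.3 and 15.3 against 15.6 and 13.6. Of the 3 genes whose promoters held both motifs, Igtp fell in both classes, Gbp5 was called in neither and Gbp7 was called higher in Cd4 cells.

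**Figure D2:**
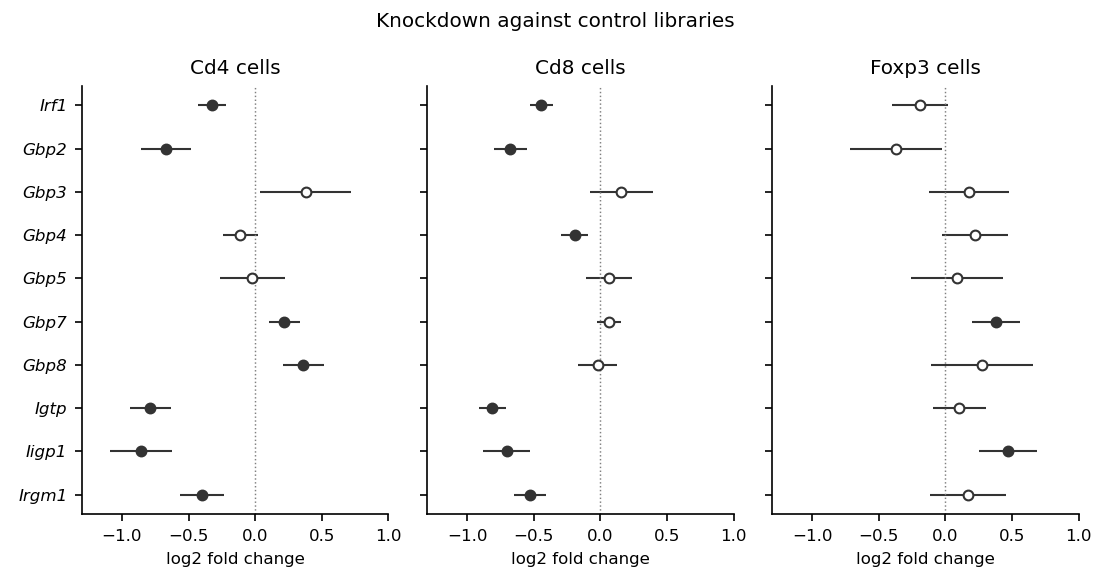
Log2 fold change of knockdown against control libraries (2 each) for the 10 genes in Cd4, Cd8 and Foxp3 cells. Bars are approximate 95% intervals from the derived SE, and filled points are edgeR calls at an adjusted p under 0.05. Igtp lay at -0.79 in Cd4 and -0.81 in Cd8 cells, while in Foxp3 cells the only filled points were Gbp7 (0.38) and Iigp1 (0.47).

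In Foxp3 cells none of the 10 genes was called lower and Gbp7 and Iigp1 were called higher, where 3.60% of the 8816 genes tested were called lower and 3.68% higher (edgeR; 3 of the 10 genes were under an unadjusted p of 0.05, and DESeq2's Wald test called 0 with 2 under that p). Iigp1 was at 94.2 and 86.1 CPM in control and 139 and 113 in knockdown Foxp3 cells (0.47 ± 0.11), and Gbp7 at 149 and 134 against 190.3 and 182 (0.38 ± 0.09). The libraries did not overlap for either gene. Both calls were lost without control library 2 (0.39 for Iigp1, 0.30 for Gbp7) and without knockdown library 1 (0.32 and 0.35). The call for Gbp7 was also lost without knockdown library 2 (0.40), and that for Iigp1 with mitochondrial UMIs up to 10% (0.26). Igtp was at 118 and 115 against 128 and 125 CPM, Irgm1 at 50.2 and 54.4 against 54.6 and 63.3, Irf1 at 123 and 120.0 against 119.9 and 95.6, and Gbp2 at 56.6 and 38.7 against 39.3 and 35.3, none of them called. Without control library 2, the low one of its pair, Gbp2 was called lower (-0.62). The 10 genes had a median log2 fold change of 0.17, against 0.00 over all genes tested.

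Whether the knockdown effect itself differed between classes was tested as an interaction in the fit over all 12 sums. Between Foxp3 and Cd4 cells it differed for 3 of the 10 genes, all in the direction of Foxp3 cells, where 3.00% of the 11740 genes tested were called in that direction. These were the 3 IRG genes: Iigp1 (1.33 ± 0.15, edgeR adjusted p = 2.61e-08), Igtp (0.91 ± 0.12, 6.80e-07) and Irgm1 (0.58 ± 0.16, 0.0197). The call for Irgm1 was lost without control library 1 (0.41), knockdown library 1 (0.66) or knockdown library 2 (0.48) and by DESeq2's Wald test (0.55), and those for Iigp1 and Igtp passed the test in the 14 alternative settings that set no limit on the fold (1.07 to 1.46 and 0.72 to 1.04). Between Cd8 and Cd4 cells 1 gene differed, Gbp8 (-0.38 ± 0.11, edgeR adjusted p = 0.0438), where 1.95% of all genes were called in that direction, and it was lost without control library 1 (-0.24), knockdown library 1 (-0.37) or knockdown library 2 (-0.41). For Igtp the difference between the effects in Cd8 and Cd4 cells was -0.03 ± 0.10, and for Ifng it was 0.15 ± 0.10.

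The same pattern was looked for in shares of cells, with every cell thinned to 1000 UMIs; at most 31 cells of a library and class were shallower and left out. A UMI of Igtp was found in 6.56 and 6.04% of control against 3.72 and 4.25% of knockdown Cd4 cells and in 8.28 and 8.30% against 5.13 and 4.98% of Cd8 cells. In Foxp3 cells the Igtp shares were 12.2 and 12.2% against 12.8 and 11.9%. With 2 libraries against 2 the smallest p an exact permutation test can give is 0.333, so the shares are descriptions. A UMI of any of the 10 genes was found in 33.7 and 32.7% of control and 32.5 and 32.3% of knockdown Cd4 cells, in 40.4 and 40.4% against 36.7 and 36.1% of Cd8 cells, and in 50.1 and 50.8% against 52.4 and 51.3% of Foxp3 cells. Without thinning, the shares for any gene were 84.1 to 95.0% across all classes and libraries. No class known to lack these genes was present as a background for the shares. In droplets not called as cells (10 to 100 UMIs) Igtp stood at 118 and 116 CPM in control and 76.6 and 86.0 in knockdown libraries, Irf1 at 165 and 174 against 128 and 107, and Gbp4 at 155 and 183 against 119 and 80.8, while Gbp2 (47.8 and 47.8 against 42.3 and 48.6), Gbp7 (113 and 102 against 125 and 106) and Gbp3 (12.6 and 12.7 against 16.5 and 12.2) overlapped between the groups. The other 4 genes were lower in these droplets of both knockdown libraries. Irgm1 was at 81.1 and 68.3 against 58.7 and 44.3 CPM, and Iigp1 at 36.6 and 37.2 against 36.5 and 31.3. Gbp5 was at 25.3 and 19.5 against 10.0 and 17.4, and Gbp8 at 84.2 and 92.1 against 80.9 and 50.4. The scaled Cd4 levels of the 10 genes lay below the unscaled droplet levels of the same library, apart from Gbp5 in knockdown library 1 (15.6 against 10.0 CPM). The Cd8 and Foxp3 levels lay above those of the droplets for some genes and below for others. The part of free RNA in the levels was not tested.

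Markers of other cell types also moved with the groups. Outside Foxp3 cells the regulatory T cell markers summed to 64.1 to 71.9 CPM in control and 223 to 224 in knockdown Cd4 cells and to at most 28.2 against at most 104 in Cd8 cells. Most of the Cd4 difference was Ikzf2, at 42.4 and 48.5 against 183 and 178 CPM, with Ctla4 at 14.4 and 14.0 against 32.5 and 33.9 and Il2ra at 7.25 and 9.38 against 8.47 and 10.9, whose groups overlapped. The T cell markers stood at 3586 to 3615 against 5146 to 5397 CPM in Cd4 cells and 3447 to 3550 against 4517 to 4844 in Cd8 cells. The myeloid markers (5 to 8 of 8 detected) summed to 5.64 to 6.94 CPM in control and 20.5 to 23.3 in knockdown Cd4 cells, to 6.95 to 7.45 against 23.2 to 23.4 in Cd8 cells, and to 16.2 to 16.4 against 29.2 to 32.0 in Foxp3 cells, with Adgre1 at 0 in control Cd4 cells. The NK cell markers (Ncr1, Klrb1c and Klre1) summed to 5.36 to 5.58 against 36.8 to 42.0 CPM in Cd4 cells and 6.35 to 7.65 against 38.4 to 51.7 in Cd8 cells, nearly all from Klre1, with Ncr1 at 0 in every class and library. The 2 gamma-delta T cell markers (Trdc and Tcrg-C1) summed to 7.49 to 14.2 against 36.8 to 43.2 CPM in Cd4 cells and 9.16 to 14.8 against 41.2 to 41.5 in Cd8 cells. In Cd4 cells Trdc itself was at 10.2 and 5.28 against 7.60 and 4.69 CPM, and Tcrg-C1 at 3.97 and 2.21 against 29.2 and 38.5. The B cell markers summed to 15.9 to 19.1 against 8.33 to 10.9 CPM in Cd8 cells and to at most 2.76 in Cd4 cells, and the tumor or stroma markers to 62.7 to 65.6 against 45.2 to 48.0 in Cd4 cells and 39.0 to 39.1 against 27.1 to 27.4 in Cd8 cells. Most of that sum was Pecam1, at 61.0 and 57.9 against 35.2 and 32.3 CPM in Cd4 cells, while the epithelial marker Epcam was at 4.39 and 4.41 against 12.6 and 11.4. The part of these lists in the results was not tested.

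Cells with and without an Ifng UMI were then compared within the same libraries, with the library as a block. In Cd4 cells 4 were higher and 3 lower in the Ifng-positive cells, where 20.9% of the 10050 genes tested were called higher and 20.7% lower. In Cd8 cells 3 were higher and 2 lower, where 18.7% of 10264 were called higher and 19.7% lower. The lower count in Cd8 cells was at the background. The lower count in Cd4 cells and the higher count in Cd8 cells were not far above it. The higher genes were GBPs. Gbp3 was at 20.0, 18.6, 12.2 and 11.5 CPM in the Ifng-positive Cd4 cells of control libraries 1 and 2 and knockdown libraries 1 and 2, against 5.74, 5.89, 7.66 and 7.17 in the Ifng-negative cells, a log2 difference of 1.20 ± 0.27, and it was 0.85 ± 0.18 in Cd8 cells. Gbp5 (0.79 ± 0.15 in Cd4, 0.49 ± 0.16 in Cd8) and Gbp7 (0.54 ± 0.09 and 0.35 ± 0.11) were higher in both classes, and Gbp8 (0.47 ± 0.11) in Cd4 cells.

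The lower genes were IRGs. Igtp was at 46.5, 39.3, 27.6 and 26.9 CPM in the Ifng-positive Cd4 cells of the same 4 libraries, against 80.7, 74.0, 47.4 and 56.5 in the Ifng-negative cells (-0.89 ± 0.10), and it was lower by -0.37 ± 0.09 in Cd8 cells. Irgm1 (-0.70 ± 0.11 in Cd4, -0.33 ± 0.10 in Cd8) and, in Cd4 cells, Iigp1 (-0.68 ± 0.19) were also lower. Igtp was lower in the Ifng-positive cells of all 4 libraries in both classes. Irf1, Gbp2 and Gbp4 were not called in either class. With Ifng-positive cells held to 2 or more Ifng UMIs, Gbp2 was called lower in Cd8 cells (-0.52), and Gbp7 (0.35) and Irgm1 (-0.29) were not called there. Igtp thus stood lowest in the Ifng-positive Cd4 cells of the knockdown libraries.

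Most of these calls were lost with cells thinned to a common depth, and some without single libraries. Thinning also removed counts, and the genes called over all genes fell from 4180 to 1317 in Cd4 and from 3947 to 818 in Cd8 cells. Ifng-positive Cd8 cells were shallower (median 5928 to 6336 UMIs) than Ifng-negative ones (7454 to 9154), while in Cd4 cells the medians were 6845 to 7028 against 6717 to 8079. With each cell thinned to 2000 UMIs before the split, Irgm1 in Cd4 cells was the only call left (-1.34). The values for Igtp were then -0.62 in Cd4 and -0.25 in Cd8 cells, and those for Gbp3 1.4 and 0.93. In Cd8 cells Gbp5 was at 0.06, Gbp7 at 0.04 and Irgm1 at -0.09, and in Cd4 cells Gbp5 was at 0.61, Gbp7 at 0.48, Gbp8 at 0.42 and Iigp1 at -1.49. Without knockdown library 1 or 2 Iigp1 was not called in Cd4 cells (-0.64 and -0.47). In Cd8 cells Gbp5 and Gbp7 were lost without control library 1 (0.34 and 0.21) or knockdown library 2 (0.39 and 0.34), and Irgm1 without control library 1 (-0.28), control library 2 (-0.28) or knockdown library 2 (-0.35).

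**Figure D3:**
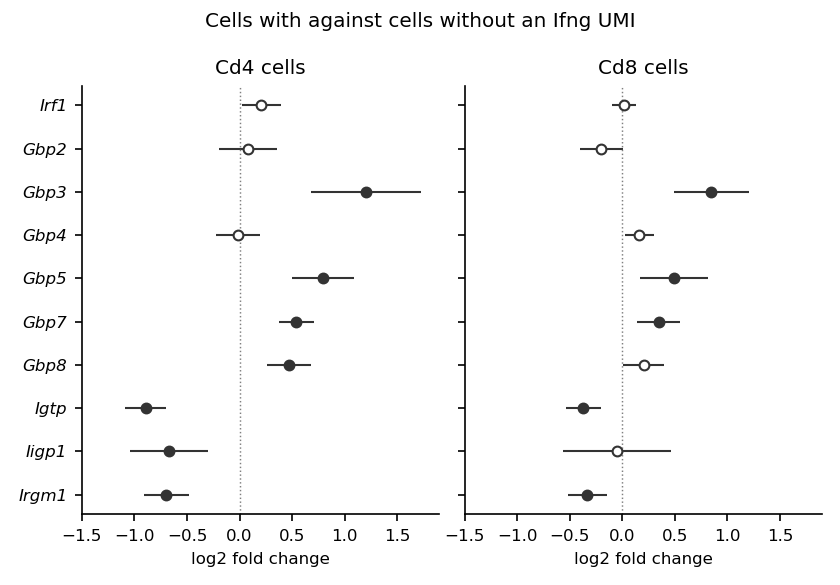
Log2 fold change of cells with against cells without an Ifng UMI, paired within the 4 libraries, for the 10 genes in Cd4 and Cd8 cells. Bars are approximate 95% intervals from the derived SE, and filled points are edgeR calls at an adjusted p under 0.05. Gbp3 lay at 1.20 in Cd4 and 0.85 in Cd8 cells, and Igtp at -0.89 and -0.37.

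Since the knockdown libraries held more Ifng-positive cells, the groups were also compared among Ifng-negative cells alone (1726 and 1417 control and 548 and 745 knockdown Cd4 cells, 2569 and 2129 against 715 and 954 Cd8 cells). In Cd4 cells 4 genes fell, where 10.9% of all genes tested were called lower: Irf1 (-0.35 ± 0.07), Gbp2 (-0.77 ± 0.12), Igtp (-0.56 ± 0.09) and Iigp1 (-0.58 ± 0.13), the last of them lost without knockdown library 2 (-0.52). Irgm1 (52.8 and 45.7 against 42.5 and 41.1 CPM) was not called, but was without control library 2 (-0.34) and with no filter on low counts (-0.28). In Cd8 cells 6 genes fell, where 12.7% were called lower: Irf1 (-0.45 ± 0.05), Gbp2 (-0.63 ± 0.07), Gbp4 (-0.26 ± 0.06), Igtp (-0.74 ± 0.06), Iigp1 (-0.81 ± 0.11) and Irgm1 (-0.49 ± 0.07). Igtp in these Cd8 cells was at 93.3 and 91.8 against 54.7 and 55.7 CPM. No member was called higher in either class by edgeR, while Gbp8 in Cd4 cells was under an unadjusted p of 0.05 (0.27 ± 0.10) and was called without doublet removal (0.26) and with total UMIs as the scale (0.29).

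The groups also differed in the state of their T cells, so cells were split by markers. Effector-marked cells had at least 3 UMIs over Nkg7, Ccl5, Gzmk, Gzmb, Lag3 and Pdcd1, genes of killing, chemotaxis and inhibitory receptors. Of Cd4 cells, 203 and 193 of control and 524 and 713 of knockdown libraries were effector-marked, and of Cd8 cells 2182 and 1944 against 1028 and 1369. A split that left out Nkg7 and Ccl5 and asked for 2 UMIs of the other 4 genes was added after the data were seen. It gave 194 and 178 against 410 and 526 effector-marked Cd4 cells, and 341 and 375 against 645 and 783 effector-marked Cd8 cells.

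Among effector-marked Cd4 cells, 3 genes fell (2.92% of all genes tested were called lower): Irf1 (-0.43 ± 0.10), Gbp3 (-0.94 ± 0.25) and Igtp (-0.64 ± 0.16). Ifng did not pass the test there, with 355 and 380.3 CPM in control and 419 and 282 in knockdown libraries, though without knockdown library 1 it was called lower (-0.37). Gbp3, at 28.6 and 19.7 against 12.8 and 12.4 CPM, had been higher in the knockdown libraries over all Cd4 cells without passing the test. None of these calls was kept in every fit without 1 library. Irf1 was lost without control library 2 (-0.39), and Igtp without control library 1 (-0.49) or knockdown library 1 (-0.47). Gbp3 was lost without control library 1 (-0.64), knockdown library 1 (-0.95) or knockdown library 2 (-0.90). DESeq2's Wald test called none of the 3 (-0.44, -0.66 and -0.95). Iigp1, at -0.88 and not called, was called lower without control library 2 (-1.17), with no filter on low counts (-0.86) and without doublet removal (-0.86). With the 4-gene split the same 3 and Iigp1 fell (4.91% of all genes called lower): Irf1 (-0.40 ± 0.11), Gbp3 (-0.81 ± 0.26), Igtp (-0.95 ± 0.17) and Iigp1 (-1.0 ± 0.28). Igtp was then at 60.2 and 55.2 against 26.7 and 32.5 CPM.

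Among effector-marked Cd8 cells the 6-gene split, which holds most Cd8 cells, gave the same 6 lower genes as the class as a whole (19.7% of all genes called lower), with Igtp at -0.75 ± 0.05 and Ifng at 2.21 ± 0.10. Gbp4 (-0.15 ± 0.05) was lost without control library 1 (-0.18), control library 2 (-0.11) or knockdown library 2 (-0.09). With the 4-gene split 3 genes fell, Irf1 (-0.35 ± 0.08), Gbp2 (-0.47 ± 0.13) and Igtp (-0.49 ± 0.11), where 3.35% of all genes were called lower, and Ifng rose by 0.29 ± 0.07. In neither split was a gene of the set called higher in effector-marked cells of either class, but without doublet removal Gbp7 was called higher in those Cd8 cells of the 6-gene split (0.12).

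**Figure D4:**
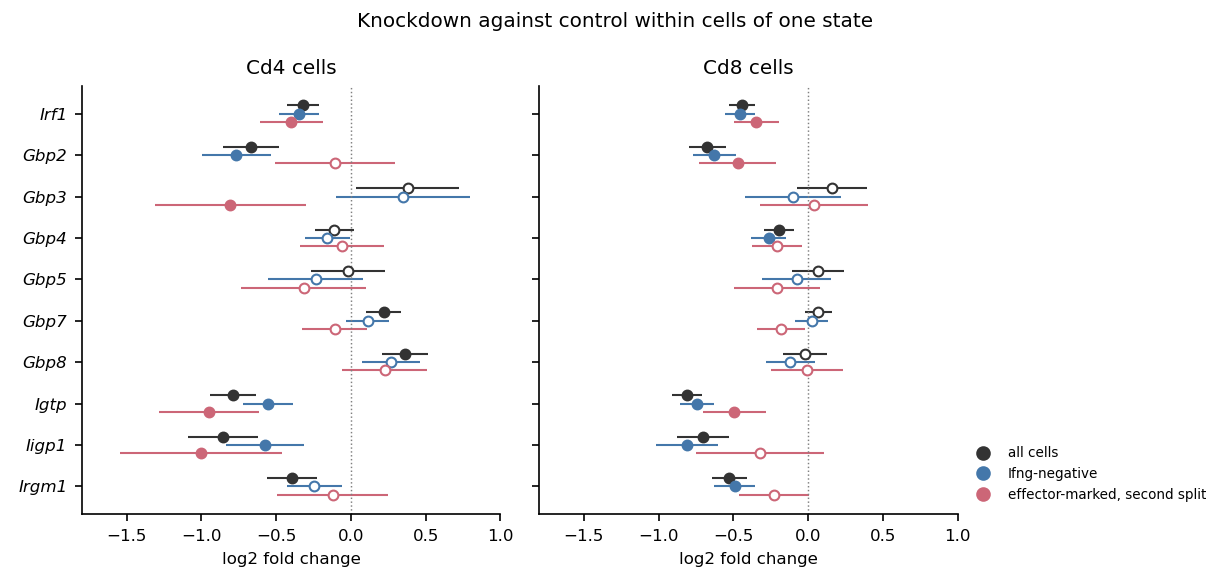
Log2 fold change of knockdown against control libraries for the 10 genes in all cells, Ifng-negative cells and effector-marked cells of the 4-gene split, in Cd4 and Cd8 cells. Bars are approximate 95% intervals from the derived SE, and filled points are edgeR calls at an adjusted p under 0.05. Irf1 was called lower in all 3 sets of both classes (-0.32 to -0.45), as was Igtp (-0.49 to -0.95).

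The other GTPase genes of these families were a list of 11 of which 9 were tested. In Cd4 cells 4 fell and 1 rose (20.4% and 21.2% of all genes tested), in Cd8 cells 4 fell and 1 rose (20.6% and 21.1%), and in Foxp3 cells 0 fell (edgeR) and 1 rose (3.60% and 3.68%). Ifi47, a further IRG gene, was at 194 and 177 against 145 and 148 CPM in Cd4 cells and 271 and 266 against 211 and 214 in Cd8 cells (-0.34 ± 0.05 and -0.33 ± 0.04). Tgtp2 fell by -0.78 ± 0.10 and -0.59 ± 0.07, though its reads may be split with its near-identical copy Tgtp1. Gm4070, a predicted GTPase gene of the very large inducible family, rose in all 3 classes (0.65 ± 0.13, 0.42 ± 0.10 and 0.87 ± 0.18). Gbp6 and Gbp9 were not called in any class where they were named.

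The interferon-gamma pathway list, 22 genes without Ifng, mostly did not follow the IRGs. In Cd4 cells 9 of 20 tested genes rose and 4 fell, in Cd8 cells 12 of 20 rose and 5 fell, and in Foxp3 cells 3 of 19 rose and 0 fell (edgeR). Over all genes tested the shares called higher and lower were 21.2% and 20.4% in Cd4, 21.1% and 20.6% in Cd8, and 3.68% and 3.60% in Foxp3 cells, so the counts that fell in Cd4 and Cd8 cells were near the background. Among the receptors, Ifngr2, the signaling subunit, fell from 37.7 and 31.6 to 13.0 and 17.9 CPM in Cd4 cells and from 26.2 and 22.8 to 8.52 and 8.49 in Cd8 cells (-1.14 ± 0.13 and -1.52 ± 0.12). In Foxp3 cells it was at 29.1 and 17.5 against 14.6 and 13.4 CPM and was not called. The other subunit, Ifngr1, named here after its values were seen, lay the other way, at 79.5 and 81.2 against 111 and 115 CPM in Cd4 and 105 and 116 against 137 and 125 in Cd8 cells, and at 552 and 588 against 571 and 561 in Foxp3 cells. Of the factors, Irf8 rose in Cd4 cells (1.96 ± 0.13) and Cd8 cells (1.48 ± 0.12). Nlrc5, the activator of MHC class I genes, rose by 0.79 ± 0.08 and 0.63 ± 0.06, Icam1 rose in Cd4 cells by 1.26 ± 0.10, and B2m, the light chain of MHC class I, rose in Foxp3 cells by 0.43 ± 0.05. B2m was also higher in knockdown Cd4 (2225 and 2230 against 2949 and 2938 CPM) and Cd8 cells (2722 and 2746 against 3399 and 3276). Icam1 was also higher in knockdown Cd8 cells (37.5 and 37.5 against 50.1 and 46.1), while its Foxp3 values overlapped.

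The type I interferon list differed by class. In Cd4 cells 13 of 16 tested genes fell and 1 rose, in Cd8 cells 4 fell and 4 rose, and in Foxp3 cells 0 of 12 fell (edgeR) and 4 rose. Against the same shares over all genes, the Cd8 counts were near the background in both directions. Isg15 was at 89.1 and 80.5 against 42.6 and 39.5 CPM in Cd4 cells (-1.05 ± 0.07), and in Foxp3 cells at 86.8 and 51.8 against 96.4 and 101 (0.48 ± 0.14). Ifit1 fell in Cd4 cells (-1.02 ± 0.10) and rose in Cd8 (0.42 ± 0.06) and Foxp3 cells (1.21 ± 0.19). In Ifng-negative Cd8 cells it was called lower (-0.31 ± 0.09), and 6 of 15 genes of the list were lower and 2 higher there, with a median of -0.27. Of all 11223 genes tested there, 2993 were called, 1423 of them (12.7%) lower, so the count that rose was near the background. Isg20, an exonuclease gene, was the 1 gene that rose in Cd4 cells (1.12 ± 0.07), and it rose in Cd8 (1.32 ± 0.05) and Foxp3 cells (0.73 ± 0.12) too. The effect in Cd8 cells was above that in Cd4 cells for 9 of 16 genes by the interaction test, where 213 of all 11740 genes were called in that direction, and 0 were below (edgeR), while none of the IRG genes differed between these classes in that test. Between Foxp3 and Cd4 cells 5 of 16 genes of the list differed in the direction of Foxp3 cells, and 0 the other way (edgeR). There 3.00% of all genes were called in the direction of Foxp3 cells. The median of the list was 1.16, against 0.24 for the 10 genes, so this divergence was not particular to the IRG genes.

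Over the 12 class sums, the genes whose log2 CPM ran most like the sum of the 10 genes were Tent5a (Pearson r = 0.97), Tkt (0.97), Peli1 (0.95), Dctpp1 (0.95) and Gbp6 (0.94), of the 4704 genes that averaged 20 CPM or more. These sums share libraries and cell classes, and the correlations are descriptions only. Gbp6, a gene of the same family, was the only one of the 5 from the lists used here.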

How the data were processed

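CD3+ T cells from 2 pools of 80 tumors were profiled in 4 libraries, 2 per group. The authors deposited UMI counts per gene and cell, made with Cell Ranger on mm10 (version 6.1.1 per the file headers of the called-cell matrices; other sources give other versions) and not normalized. Called cells numbered 12112 and 10589 (control) and 7030 and 9129 (knockdown), with 79224898 to 132820909 RNA UMIs per library. Cells with 200 to 3000 genes and at most 5% mitochondrial UMIs were used. Doublets were called from simulated ones (2 per cell, 2000 variable genes, 30 principal components) before the upper limit of 3000 genes was set. This removed 28.4 to 33.4% of the cells with at least 200 genes and at most 5% mitochondrial UMIs. With the upper limit also set, 6476, 5270, 2889 and 3741 cells were left. Cells with Cd4 and Cd8 UMIs made up 38.4 to 40.5% of the removed doublets and 1.37 to 3.29% of the kept cells. Cells with 5 or more myeloid marker UMIs were left out of the classes.

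Counts were summed per class and library and fitted with edgeR 4.0.16 (TMM factors, quasi-likelihood test, Benjamini-Hochberg adjustment, R 4.3.3), with DESeq2 1.42.0 as an alternative. Cells were handled with Python 3.11.15, numpy 2.4.6, scipy 1.17.1, pandas 2.3.3 and scikit-learn 1.9.0, and plots drawn with matplotlib 3.10.9. Cells are not replicates, and the libraries of a group come from 1 pool, so p-values measure the spread between these libraries only. All members were named; of each list at most 4 genes were named, those with the largest absolute changes among genes averaging 20 CPM or more. The members and lists were chosen with earlier results of these data known. Columns of other samples left unused numbered 0. On simulated counts for the Cd4 comparison, 97% of genes changed by 1 and 68% of those changed by 0.5 on the log2 scale were recovered, and for the Foxp3 comparison 88% and 39%. Unchanged genes gave 9 and 3 false calls. Only genes with at least 20 expected UMIs in the smallest library were changed. All genes took the same spread, fitted to these libraries, so the shares do not speak of weaker genes or of other pools. Alternatives covered the scaling, filters, doublets, class rules, depth, the replicate number as a block and leaving out each library. A second class of marked cells and 1 gene of a list were planned and are not reported here.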

Additional observations from a re-analysis of the deposited data

Results flagged for a closer look

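The knockdown effect differed between Foxp3 and Cd4 cells for the 3 IRG genes, by the interaction term of edgeR's fit over the 12 sums: Iigp1 by 1.33, Igtp by 0.91 and Irgm1 by 0.58 on the log2 scale. The call for Irgm1 was lost in 4 of 14 alternative settings, none of which set a limit on the fold. Between Cd8 and Cd4 cells it differed for Gbp8, by -0.38, a gene that overlaps Gbp4, and this call was lost in 7 of 14.

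In droplets not called as cells, which no comparison of the report tests, Ifng stood at 71.6 and 54.7 CPM in knockdown libraries 1 and 2, above the 19.2 and 27.3 of control libraries 1 and 2. The part of this RNA in the cells' Ifng levels was not tested.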

How the results depend on the processing

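With an added limit of 1 on the absolute log2 fold change, the number of the 10 genes called became 0 for the knockdown in Cd4 (from 7), Cd8 (6), Foxp3 (2), Ifng-negative Cd4 (4) and Cd8 (6), and effector-marked Cd4 (3) and Cd8 cells (6), for the Cd8 interaction (1) and for Ifng-positive Cd8 cells (5). It became 1 for Cd8 against Cd4 (10), the Foxp3 interaction (3) and Ifng-positive Cd4 cells (7), and 4 for Foxp3 against Cd4 (7). DESeq2's Wald test called 0 in Foxp3 and effector-marked Cd4 cells (2 and 4 under an unadjusted p of 0.05) and in the Cd8 interaction (0 under it), and 3 in Ifng-positive Cd8 cells. It also lost Iigp1 in Ifng-negative Cd4 (-0.57), Gbp4 in Ifng-negative Cd8 cells (-0.26) and Iigp1 in Cd8 against Cd4 (0.33). With mitochondrial UMIs up to 10%, 1 was called in Foxp3 cells and 0 in the Cd8 interaction, where 0 were also called with myeloid-marked cells included or lineage by surface tags. At 2000 UMIs per cell, 1 and 0 were called in Ifng-positive Cd4 and Cd8 cells. Without doublet removal 5 were called in effector-marked Cd4 cells. The 4-gene split, chosen after the data were seen, gave 3 in effector-marked Cd8 cells. Leaving out 1 library at a time gave 0 to 2 in Foxp3, 1 to 3 in effector-marked Cd4, 0 to 1 in the Cd8 interaction and 2 to 5 in Ifng-positive Cd8 cells. Of 1053 alternatives for single genes called in at least 1 setting, the limit of 1 not among them, 955 kept the call or its absence. A call was lost in 77 and gained in 21, and in 0 did the direction reverse with a call in either fit. The direction changed without a call in either fit in 55 alternatives, counted over these genes and those never called. Such changes of these genes are among the 955. Over all genes, the number called fell with the limit of 1 from 4655 to 1160 in Cd4, 4814 to 1050 in Cd8, 641 to 113 in Foxp3, 2551 to 607 in Ifng-negative Cd4, 2993 to 611 in Ifng-negative Cd8, 484 to 144 in effector-marked Cd4 and 4540 to 978 in effector-marked Cd8 cells, from 3570 to 748 for Cd8 and 3807 to 1324 for Foxp3 against Cd4, from 442 to 106 and 777 to 303 for the Cd8 and Foxp3 interactions, and from 4180 to 1720 and 3947 to 1438 for Ifng-positive Cd4 and Cd8 cells. The Wald test gave, in the same order and without the Ifng-positive cells, 2703, 2808, 199, 1200, 1325, 175, 2529, 1429, 2343, 99 and 391. Of the fits without 1 library, only those that moved the number called far from the main fit are given, and the others moved it less. In these the number was 249 to 410 in Foxp3, 1194 and 1588 in Ifng-negative Cd4, and 1859 in Ifng-negative Cd8 cells. It was 1904 and 2245 for Cd8 and 2391 and 2340 for Foxp3 against Cd4, and 228 to 252 and 406 and 467 for the interactions. It was 225 in Foxp3 cells with 2 or more Foxp3 UMIs, 1317 and 818 in Ifng-positive Cd4 and Cd8 cells at 2000 UMIs, and 772 and 648 with the 4-gene split in effector-marked Cd4 and Cd8 cells, from 484 and 4540. The causes were not tested.

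Libraries with the same replicate number did not deviate together (correlations over genes of -0.04, -0.06 and 0.02 in Cd4, Cd8 and Foxp3 cells). Lanes of 1 pool differ little, so these correlations cannot show whether same-numbered libraries were handled together. With the replicate number as a block, 7, 6 and 2 of the 10 genes were called in these classes, as without it, of 4507, 4895 and 660 genes called. With the block, Ifng-negative Cd4 cells gained Irgm1 (-0.23) and Gbp8 (0.26), and effector-marked Cd4 cells gained Iigp1 (-0.85). Foxp3 cells were the fewest, 226 to 384 per library, which limits their sums.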
